A study of Homo sapiens with 4 samples.

Results

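The 59 genes described here act in the G2 phase of the cell cycle and in mitosis. They were chosen by name from a working list of such genes, with earlier results of these data known. All 59 were found among the 24940 genes of the table. Read counts per gene came from 4 RNA-seq libraries of the MOLM-13 line, which derives from human acute myeloid leukaemia and has a KMT2A fusion. The cells were lentivirally infected and drug-selected, and all 4 groups are labelled as induced with doxycycline. The groups carried a control hairpin (shControl), a short hairpin against Bcl-2 (sh-Bcl2), one against c-Myc (sh-c-Myc), or both of these hairpins (called the double knockdown here). The design sets the double knockdown beside each single knockdown. Each group held 1 library, so no difference between groups has a replicate check, and the labels do not say whether a line is 1 clone or a pool. Each library held between 14421558 and 15691129 counts.

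A cell enters mitosis when cyclin-dependent kinase 1, bound to an A or B type cyclin, becomes active. Condensin then compacts the chromosomes, the spindle is built by kinases and motor proteins, kinetochores attach to it, and a checkpoint holds the anaphase-promoting complex inactive until every chromosome is attached. Most of these genes are transcribed late in the cycle: the DREAM repressor complex keeps them off in G0 and G1, and B-MYB, the MuvB core and FOXM1 turn them on in G2, largely through a promoter element called the cell cycle genes homology region (CHR) and through CCAAT boxes bound by NF-Y. c-Myc binds E-boxes with its partner MAX. In a culture of leukaemia cells the RNA of these genes follows how many cells are in late G2 and mitosis, so in bulk RNA fewer such cells and less RNA per cell cannot be told apart.

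The promoters of the 4 genes with the largest reductions in sh-c-Myc are shown to make these elements visible. They are RefSeq sequences of GRCh38.p14, 5′ to 3′ on the strand of the gene, from 250 bases before to 30 bases after the annotated start. Capitals mark 3 motifs on either strand. The CHR was searched as TTTGAA and in its less frequent form as TTCGAA, the CCAAT box by those letters, and the E-box as CACGTG. A CHR on the opposite strand reads TTCAAA here, and such a CCAAT box reads ATTGG. The regions are chr1:43358731-43359010 (plus strand) for CDC20, chr4:120066819-120067098 (minus strand) for MAD2L1, chr4:17810729-17811008 (plus strand) for NCAPG and chr5:138178862-138179141 (plus strand) for KIF20A.
CDC20: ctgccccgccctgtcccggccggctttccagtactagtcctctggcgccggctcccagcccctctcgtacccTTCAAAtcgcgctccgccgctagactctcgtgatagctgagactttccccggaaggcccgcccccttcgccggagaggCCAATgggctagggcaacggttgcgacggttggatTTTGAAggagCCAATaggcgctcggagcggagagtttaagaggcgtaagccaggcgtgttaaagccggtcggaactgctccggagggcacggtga
MAD2L1: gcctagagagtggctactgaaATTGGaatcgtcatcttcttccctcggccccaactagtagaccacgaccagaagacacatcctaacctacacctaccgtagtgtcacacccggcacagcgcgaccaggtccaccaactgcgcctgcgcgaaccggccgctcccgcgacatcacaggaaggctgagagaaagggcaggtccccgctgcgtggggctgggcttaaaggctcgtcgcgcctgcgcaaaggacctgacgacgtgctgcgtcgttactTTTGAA
NCAPG: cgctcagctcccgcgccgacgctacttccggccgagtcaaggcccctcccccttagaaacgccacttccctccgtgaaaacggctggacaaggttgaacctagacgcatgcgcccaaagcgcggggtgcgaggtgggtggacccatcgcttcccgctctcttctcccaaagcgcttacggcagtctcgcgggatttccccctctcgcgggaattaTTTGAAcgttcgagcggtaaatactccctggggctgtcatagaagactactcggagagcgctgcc
KIF20A: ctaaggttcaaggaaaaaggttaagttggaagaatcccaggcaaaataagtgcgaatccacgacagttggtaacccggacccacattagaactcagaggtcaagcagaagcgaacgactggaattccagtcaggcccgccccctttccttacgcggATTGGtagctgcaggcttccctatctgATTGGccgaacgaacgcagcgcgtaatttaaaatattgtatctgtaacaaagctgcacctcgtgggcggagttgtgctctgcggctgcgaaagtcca
CDC20 held 2 CHR and 2 CCAAT matches, the closest CHR beginning 65 bases before the start. MAD2L1 held a CHR 25 bases after the start and a distant CCAAT box, NCAPG a CHR 35 bases before the start and no CCAAT box, and KIF20A 2 CCAAT boxes, 94 and 67 bases before the start, with no match to the CHR letters. None of the 4 held an E-box. All 4 genes had at most 32.0% of the shControl level in sh-c-Myc, NCAPG with a CHR and no CCAAT box and KIF20A the other way round.

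Over all members, the search was made from 250 bases before to 50 bases after the start. Promoters were matched for 51 of 59 members, and AURKA, BIRC5, BUB3, FOXM1, RACGAP1, TPX2, TTK and UBE2C were not matched. A CHR was found in 36 (70.6%), against 11.5% of 9536 promoters of genes that met the expression minimum used below and 16.4% of all 35116 promoters in the RefSeq table. A CCAAT box was found in 37 (72.5%), against 36.8% and 34.6%, and both elements in 28 (54.9%), against 4.93% and 6.38%. Of the 47 CHR matches, 36 began between 60 bases before and 50 bases after the start, with a median at 23 bases before it. The c-Myc E-box was found in 6 members (11.8%), namely ANLN, CCNB1, CENPE, CENPF, PLK1 and SGO1, near the 10.3% of promoters of expressed genes. In 2 places matches to different motifs overlapped. DNA replication genes, which are transcribed earlier in the cycle, had a CHR in 4.44% of 45 promoters and a CCAAT box in 55.6%. The median log2 ratio of sh-c-Myc to shControl was -1.05 in the 36 members with a CHR and -1.25 in the 15 without. For the CCAAT box it was -1.18 in the 37 members with a match and -0.94 in the 14 without. Whether these motifs had a part in the reductions was not tested. A match is a description of letters and not a bound site.

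The targeted genes were examined first. MYC stood at 433.7 CPM (counts scaled to 1000000 per library, with TMM factors between libraries) in shControl, 364 with sh-Bcl2, 278 with sh-c-Myc and 302 with both hairpins, a log2 ratio to shControl of -0.64 with its hairpin alone and -0.52 with both. BCL2 stood at 119.7, 38.7, 112 and 44.5 CPM in the same order, a log2 ratio of -1.63 in sh-Bcl2 and -1.43 in the double knockdown. MYC RNA was therefore lower by less than 2-fold in both libraries with its hairpin, and BCL2 RNA by more than 2-fold in both with its own. Markers of a myeloid leukaemia line (6 of 6 detected) summed to between 1033 and 1689 CPM. Monocyte and macrophage markers (13 of 14 listed in the table) summed to 153.8 CPM in shControl, 262 with sh-Bcl2, 773 with sh-c-Myc and 819 with both hairpins, with 4, 3, 1 and 1 of them at 0, CD68 among them in shControl and sh-Bcl2. Granule protein genes (5 of 7) summed to 2284, 1512, 4531 and 4525 CPM. B cell markers summed to at most 5.26 CPM and T cell, erythroid and stromal markers each to at most 0.832 CPM. The summed myeloid markers were thus higher in both libraries with the c-Myc hairpin, though not every marker was. Of markers with at least 1 CPM in a library, 7 of 8 monocyte and macrophage, 4 of 5 granule and 5 of 6 leukaemia line genes were above shControl in sh-c-Myc. Those below it were CD163 (log2 ratio -0.94, within counting error), CTSG (-0.34) and MEIS1 (-0.49). CTSG (-0.74) and MEIS1 (-0.58) were also below shControl in the double knockdown. The part of these markers in the results below was not tested.

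With the c-Myc hairpin alone, mitotic genes were lower across every role. A gene was called when the 2 libraries differed at least 2-fold, the 95% interval of the ratio excluded 1, and at least 1 library reached 1 CPM, which 13646 genes met, all 59 members among them. The intervals, in brackets below, cover counting error only. In sh-c-Myc 35 of 59 members were called lower than in shControl and 0 higher, where 9.86% of all genes were called lower. At a 1.5-fold threshold 54 members were lower, where 20.5% of all genes were. The median log2 ratio was -1.14 over the members and -0.02 over all genes, and 57 members had an interval wholly below 0, as did 37.3% of all genes. Their summed level was 7670 CPM in shControl and 3911 in sh-c-Myc. The remaining 2 members, PRC1 and NUSAP1, had 6 to 18 and 32 to 45 counts per library. They overlap other genes on the same strand over 57.57% and 62.16% of their exonic bases, so their counts are uncertain. Both stay in the counts and medians of all members and of their role groups below. Scaling by total counts raises every log2 ratio of this comparison by 0.19.

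With both hairpins, 50 of 59 members lay above the sh-c-Myc level and below the shControl level, as did 28.8% of all genes. Only SPC24 of 59 members was called lower than in shControl, where 5.99% of all genes were called lower. At 1.5-fold 13 members (22.0%) were lower, where 14.9% of all genes were. The median log2 ratio to shControl was -0.34. Compared with sh-c-Myc, 12 members were called higher in the double knockdown and 0 lower, where 1.66% of all genes were called higher, and 43 at 1.5-fold, where 5.96% were. The median of this log2 ratio was 0.84 (all genes 0.03), and 55 members had an interval wholly above 0, as did 31.5% of all genes. The count of 12 fell to 6 with total counts, with upper quartile factors, with FPKM + 0.1 or with a GC and length trend removed, and to 3 with FPKM + 1. At the median, a member held 45.2% of its shControl level with the c-Myc hairpin alone and 78.8% with both hairpins. Of the 59 members 57 were lowest in sh-c-Myc of the 4 libraries, as were 35.34% of all genes. The order shControl, double knockdown, sh-c-Myc, with intervals that exclude 1 at both steps, held for 42 members and for 14.58% of all genes.

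**Figure D1:**
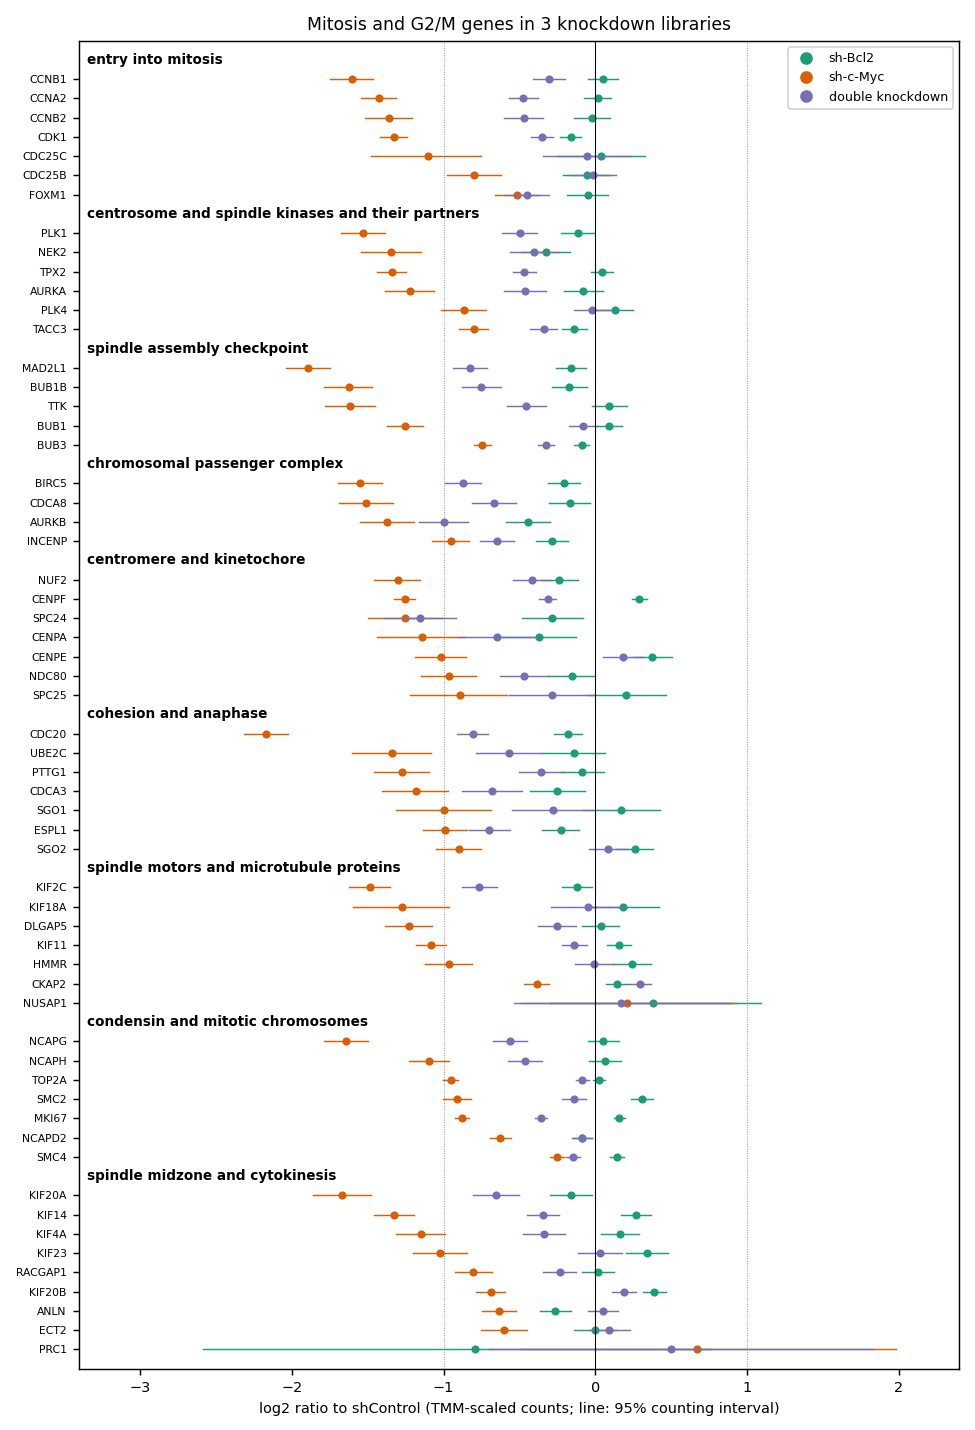
Log2 ratio to shControl of each of the 59 members (rows, grouped by role) in sh-Bcl2 (green), sh-c-Myc (orange) and the double knockdown (purple), with 95% counting intervals; dotted lines mark 2-fold. Orange points lie left of 0 for 57 members, green points stay near 0, and purple points lie between them for most members.

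Of 7 genes of mitotic entry, 5 were called lower in sh-c-Myc (median log2 ratio -1.33). CCNB1, the cyclin B1 gene whose product activates CDK1, stood at 112 CPM in shControl, 116 with sh-Bcl2, 36.6 with sh-c-Myc and 90.4 with both hairpins. Its log2 ratio to shControl was -1.61 [-1.75 to -1.47] with the c-Myc hairpin alone and -0.30 [-0.41 to -0.20] with both, the largest difference within the group between both libraries with the c-Myc hairpin (1.30 [1.16 to 1.45]). CCNA2, encoding cyclin A2, had 144, 145, 53.5 and 103.5 CPM in the same order, and CDK1, the mitotic kinase itself, 231, 207, 92.1 and 181 CPM. For both, sh-c-Myc was the lowest library and the double knockdown stood above it by 0.95 and 0.98 on the log2 scale. FOXM1, the transcription factor of G2 genes, had 62.8, 60.6, 44.0 and 45.9 CPM. It was the least reduced of the group in sh-c-Myc (log2 ratio -0.51 [-0.66 to -0.37]), and the double knockdown was not distinguishable from sh-c-Myc within counting error (0.06 [-0.09 to 0.22]). A share of 15.94% of FOXM1 exonic bases lies opposite another gene, and strand-specific counting is not stated. CCNB2 and CDC25C, which encode a second B cyclin and a phosphatase that activates CDK1, were called lower (-1.36 and -1.11), while CDC25B, another such phosphatase, stayed inside 2-fold (-0.80) and within counting error of shControl in the double knockdown (-0.02).

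Among 6 genes of centrosome and spindle kinases and their partners, 4 were called lower in sh-c-Myc (median -1.28). PLK1, the polo-like kinase of centrosome maturation and mitotic exit, had 99.4 CPM in shControl, 91.8 with sh-Bcl2, 34.4 with sh-c-Myc and 70.4 with both hairpins. Its log2 ratio was -1.53 [-1.68 to -1.39] in sh-c-Myc, and the double knockdown was 2.05-fold higher than sh-c-Myc [1.84 to 2.27]. TPX2, the activator of Aurora A on spindle microtubules, had 214, 220.4, 84.3 and 155 CPM. TACC3, which crosslinks spindle microtubules, had 164, 149, 94.3 and 129.8 CPM and was the least reduced of the group (-0.80 [-0.90 to -0.71]). AURKA (-1.22) and NEK2 (-1.34), kinases of centrosome maturation and centrosome separation, were called lower, and PLK4, the kinase of centriole duplication, was not (-0.87) and was within counting error of shControl in the double knockdown (-0.02).

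The spindle assembly checkpoint group had the lowest median of the 9 role groups in sh-c-Myc (-1.61), with 4 of 5 genes called lower. MAD2L1 encodes MAD2, which binds and inhibits CDC20. It stood at 121 CPM in shControl, 108 with sh-Bcl2, 32.5 with sh-c-Myc and 68.1 with both hairpins, so sh-c-Myc held 26.9% and the double knockdown 56.4% of the shControl level. BUB1B, encoding the checkpoint protein BUBR1, had 88.6, 78.7, 28.7 and 52.6 CPM, a log2 ratio of -1.63 [-1.79 to -1.47] with the c-Myc hairpin alone and -0.75 [-0.88 to -0.62] with both. BUB1, a kinetochore kinase of the checkpoint, had 134, 142, 56.0 and 126 CPM. MAD2L1 and BUB1B thus stayed 1.77-fold and 1.68-fold below shControl in the double knockdown, while BUB1 came to 94.4% of it. TTK, the kinase MPS1 at the top of the checkpoint, was 3.06-fold lower in sh-c-Myc [2.73 to 3.44] and 1.37-fold lower in the double knockdown [1.25 to 1.50]. BUB3, which also serves outside mitosis, was the most abundant of the group at 472.5, 444, 282 and 377.5 CPM and remained inside 2-fold in sh-c-Myc (-0.74 [-0.80 to -0.69]).

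The chromosomal passenger complex, which corrects faulty attachments and drives cytokinesis, had 3 of 4 subunit genes called lower in sh-c-Myc (median -1.44). In the double knockdown 4 of 4 genes were lower than in shControl at 1.5-fold, and the median (-0.77) was the lowest of the 9 role groups. AURKB, the kinase Aurora B, had 61.8 CPM in shControl, 45.5 with sh-Bcl2, 23.9 with sh-c-Myc and 30.9 with both hairpins. BIRC5, the subunit survivin, had 104, 90.2, 35.5 and 56.9 CPM. For AURKB the double knockdown was close to sh-c-Myc (log2 ratio between them 0.37 [0.17 to 0.57]), and for BIRC5 it was further above it (0.68 [0.52 to 0.83]). CDCA8, encoding borealin, had 66.4, 58.99, 23.3 and 41.8 CPM, and INCENP, the scaffold, 111.0, 90.9, 57.3 and 70.9 CPM. All 4 genes were also below shControl in sh-Bcl2 with intervals that exclude 1, by 0.44 for AURKB, 0.29 for INCENP, 0.21 for BIRC5 and 0.17 for CDCA8 on the log2 scale. Each of these is under 1.5-fold. The longest transcripts of AURKB (55.6% GC), INCENP (59.6%), BIRC5 (52.2%) and CDCA8 (51.4%) were GC-rich beside the member median of 42.6%. GC content ran with both ratios to shControl across members, as given below, and its part in the rank of this group was not tested.

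Among 7 centromere and kinetochore genes, 5 were called lower in sh-c-Myc (median -1.14). CENPF, a large outer kinetochore protein of G2, had 394 CPM in shControl, 482 with sh-Bcl2, 165 with sh-c-Myc and 317 with both hairpins. NUF2, of the NDC80 complex that holds microtubules, had 81.4, 69.1, 33.0 and 60.9 CPM. Both were more than 2-fold lower in sh-c-Myc and stood at 80.4% and 74.8% of shControl in the double knockdown. CENPE, the kinetochore motor that brings chromosomes to the metaphase plate, had 60.2, 78.1, 29.7 and 68.4 CPM, and its double knockdown level was 1.14-fold above shControl [1.04 to 1.25]. SPC24 did not follow this order. It encodes another subunit of the NDC80 complex and had 31.7, 26.0, 13.3 and 14.2 CPM, 2.38-fold lower in sh-c-Myc [2.02 to 2.83] and 2.23-fold lower in the double knockdown [1.89 to 2.63], and both c-Myc hairpin libraries could not be told apart beyond counting error (log2 0.10 [-0.18 to 0.38]). The other subunits of that complex, NDC80 (0.50) and SPC25 (0.61), were higher in the double knockdown than in sh-c-Myc, as was CENPA, the centromeric histone (0.50).

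Of 7 genes listed under cohesion and anaphase, 4 were called lower in sh-c-Myc (median -1.18, the value of CDCA3). CDC20, the activator of the anaphase-promoting complex, had the largest change of all 59 members: 138 CPM in shControl, 122 with sh-Bcl2, 30.7 with sh-c-Myc and 79.0 with both hairpins. It was 4.50-fold lower in sh-c-Myc [4.07 to 4.99], and the double knockdown was 2.57-fold above sh-c-Myc [2.31 to 2.86] and 1.75-fold below shControl [1.63 to 1.88]. PTTG1, encoding securin, the inhibitor that this complex destroys, had 57.1, 53.8, 23.6 and 44.6 CPM. ESPL1, encoding separase, the protease that securin holds back, had 79.1, 67.5, 39.8 and 48.8 CPM. Securin RNA came to 78.1% of shControl in the double knockdown and separase RNA to 61.7%. UBE2C, the ubiquitin-conjugating enzyme of the same pathway, was called lower in sh-c-Myc (-1.34), as was CDCA3 (-1.18), whose place in this group is loose. The shugoshin genes SGO1 (-0.997) and SGO2 (-0.90), protectors of centromeric cohesin, stayed just inside 2-fold, and SGO2 was within counting error of shControl in the double knockdown (0.08 [-0.04 to 0.21]).

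The group of spindle motors and microtubule proteins had 4 of 7 genes called lower in sh-c-Myc (median -1.08) and a median of -0.05 in the double knockdown against shControl. Both medians include NUSAP1, whose counts are uncertain. KIF2C, a kinesin that takes microtubules apart at centromeres, had 113 CPM in shControl, 104 with sh-Bcl2, 40.3 with sh-c-Myc and 66.5 with both hairpins. KIF11, the motor that pushes spindle poles apart, had 167, 186, 79.0 and 152 CPM, and KIF18A, which limits chromosome oscillation, 18.8, 21.3, 7.76 and 18.2 CPM. KIF18A and KIF11 came to 96.9% and 90.8% of shControl in the double knockdown, and KIF2C to 58.9%. DLGAP5, a protein of kinetochore fibres, had 76.9, 78.8, 32.8 and 64.7 CPM. CKAP2, a microtubule-associated protein of the spindle, was the least reduced of the reliably counted genes of the group: it had 198, 219, 151 and 243 CPM, 1.31-fold lower in sh-c-Myc [1.24 to 1.38] and 1.23-fold above shControl in the double knockdown [1.17 to 1.29]. HMMR stayed inside 2-fold in sh-c-Myc (-0.96) and was within counting error of shControl in the double knockdown (-0.01). NUSAP1 is listed at 2.27, 2.97, 2.63 and 2.56 CPM, and none of the comparisons made differed beyond counting error. For this gene too, sh-c-Myc was not compared directly with sh-Bcl2.

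Among 7 genes of condensin and mitotic chromosomes only 2, NCAPG and NCAPH, were called lower in sh-c-Myc (median -0.91), and both encode subunits of condensin I. NCAPG had 106 CPM in shControl, 109.7 with sh-Bcl2, 33.9 with sh-c-Myc and 71.7 with both hairpins, and NCAPH 100.3, 104.7, 47.0 and 72.7 CPM. NCAPD2, the third subunit particular to that complex, was lower by 0.62 on the log2 scale. Of the core subunits that both condensins share, SMC2 had a log2 ratio of -0.91. SMC4, the other one, had 539.6, 595.5, 453 and 488 CPM and a ratio of -0.25 [-0.30 to -0.21]. Of the 57 members with at least 50 counts on average SMC4 had the smallest reduction in sh-c-Myc. A share of 33.14% of NCAPG exonic bases and 25.64% of SMC4 exonic bases lie opposite another gene (strand-specific counting is not stated). Smaller shares do so in other members, such as SGO1 (17.74%) and PLK1 (12.5%), and BUB1B shares 10.21% with a gene on the same strand. TOP2A, topoisomerase II alpha, which untangles sister chromatids, had 633.5, 645, 327 and 597 CPM, and MKI67, the proliferation antigen Ki-67 that coats mitotic chromosomes, 769, 858 and 599.7 CPM in shControl, sh-Bcl2 and the double knockdown and 54.4% of its shControl level in sh-c-Myc. TOP2A came to 94.2% of shControl in the double knockdown, and MKI67 to 77.98%. Per length, TOP2A was the highest member in shControl, at 93.5 FPKM (fragments per kilobase of exon, scaled to library size) beside a member median of 20.4 FPKM.

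The 9 genes of the spindle midzone and cytokinesis had a median log2 ratio of -0.81 in sh-c-Myc, with 4 called lower. In the double knockdown against shControl the median was 0.03. Both medians include PRC1, whose counts are uncertain, so the rank of the first and the sign of the second are not read. KIF20A, a kinesin that brings the passenger complex to the midzone, was the most reduced, with 62.7 CPM in shControl, 56.1 with sh-Bcl2, 19.7 with sh-c-Myc and 39.8 with both hairpins. KIF14, a kinesin of the late midbody, had 109.5, 132, 43.7 and 86.4 CPM. Both were over 2-fold lower in sh-c-Myc and remained below shControl in the double knockdown (-0.66 and -0.34). KIF23, the motor of centralspindlin, was called lower in sh-c-Myc (-1.02) and within counting error of shControl in the double knockdown (0.03), while its partner RACGAP1 was inside 2-fold (-0.81). KIF20B, a kinesin of cell abscission, had 165, 216.5, 102.5 and 188 CPM, and ANLN, the anillin of the contractile ring, 113, 93.9, 72.5 and 117 CPM. KIF20B in the double knockdown was 1.14-fold above shControl [1.08 to 1.20], and ANLN did not differ from shControl beyond counting error (0.05 [-0.05 to 0.15]). ECT2, which activates RhoA at the cleavage furrow, followed ANLN (-0.60 in sh-c-Myc, 0.09 in the double knockdown), and KIF4A, a kinesin of chromosomes and the midzone, was called lower in sh-c-Myc (-1.15). PRC1, the midzone bundling protein, is listed at 0.71, 0.40, 1.15 and 1.02 CPM, and none of the comparisons made differed beyond counting error. Its sh-c-Myc library was not compared directly with sh-Bcl2.

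**Figure D2:**
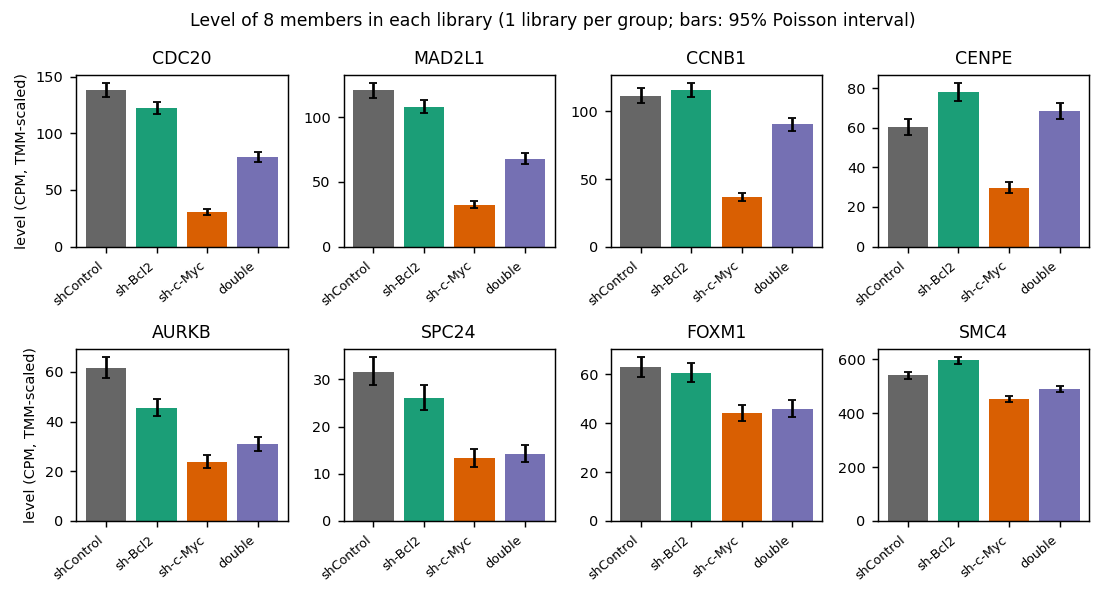
Level (CPM, TMM-scaled) of 8 members in each library, 1 library per group; error bars are 95% Poisson intervals of the count. CDC20, MAD2L1, CCNB1 and CENPE are lowest in sh-c-Myc and higher with both hairpins, AURKB and SPC24 stay low in both, and FOXM1 and SMC4 change least.

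The Bcl-2 hairpin alone left these genes near the shControl level. In sh-Bcl2 0 of 59 members were called higher or lower, also at 1.5-fold, where 5.62% of all genes were lower and 4.56% higher. The median log2 ratio was -0.0001 over the members and -0.0003 over all genes, with 22 intervals wholly below 0 (37.3% of members, 23.1% of all genes) and 14 wholly above (23.7% and 22.0%). Among the reliably counted members the ratios ran from -0.44 for AURKB to 0.39 for KIF20B. The members below shControl included the whole passenger complex, CENPA (-0.37), NEK2 (-0.33) and SPC24 (-0.28), and those above it KIF20B, CENPE (0.38), KIF23 (0.34) and SMC2 (0.31). All of these are single-library differences of under 1.5-fold. Scaling by total counts raises every log2 ratio of sh-Bcl2 to shControl by 0.0217, so intervals that end close to 0 depend on the scaling.

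Adding the c-Myc hairpin to the Bcl-2 hairpin gave smaller differences than adding it to the control hairpin. Against sh-Bcl2, 0 of 59 members were called lower in the double knockdown, where 3.63% of all genes were, and 8 were lower at 1.5-fold, where 10.6% were. The median log2 ratio was -0.35, against -1.14 for the c-Myc hairpin alone, and these medians come from libraries that do not overlap. For 56 of 59 members the c-Myc difference was smaller in size with the Bcl-2 hairpin present, as it was for 69.7% of all genes. SPC24 had the largest difference there (-0.87 [-1.12 to -0.63]), while ANLN (0.32 [0.21 to 0.42]) and CKAP2 (0.15 [0.08 to 0.21]) were higher in the double knockdown than in sh-Bcl2. Across the 59 genes the order of the c-Myc difference was partly shared between the backgrounds (Spearman 0.63 over genes, which are not independent), and that of the Bcl-2 difference less so (0.33).

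**Figure D3:**
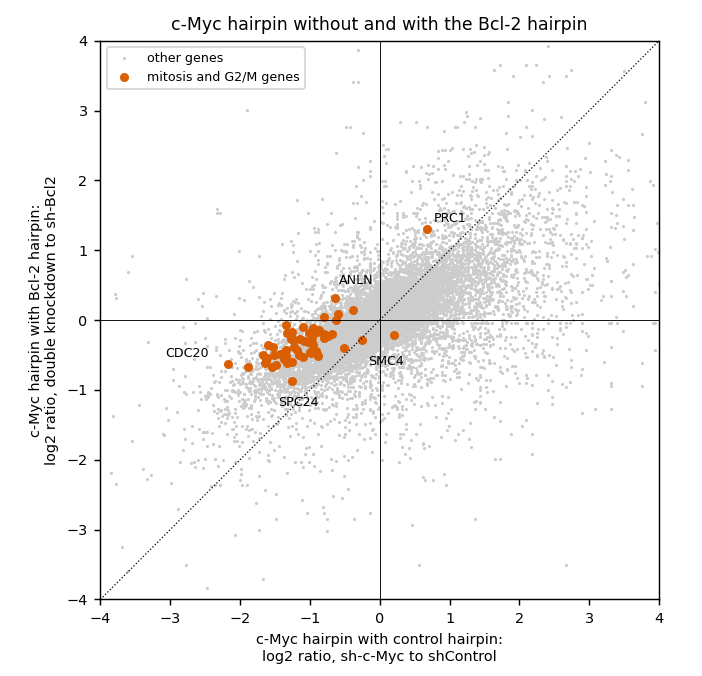
Log2 ratio of the c-Myc hairpin with the control hairpin (x axis, sh-c-Myc to shControl) against that with the Bcl-2 hairpin (y axis, double knockdown to sh-Bcl2) for the 59 members (orange) and other genes (grey); 65 grey points lie outside the axes. Most members lie above the dotted line of equal ratios, at about -1.14 on the x axis and -0.35 on the y axis at the median.

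On the log2 scale, the double knockdown ratio minus those of both single knockdowns (the departure from additivity) was positive for 57 of 59 members and 54.6% of all genes, with a median of 0.81 (all genes 0.05). For 54 the counting interval lay above 0 and for 0 below, beside 29.2% and 18.8% of all genes. A departure of at least 1 with such an interval was found in 16 members, where 3.04% of all genes had one. It was largest for CDC20 (1.54 [1.36 to 1.72]), NEK2 (1.27 [1.02 to 1.52]), CCNB1 (1.25 [1.08 to 1.42]) and MAD2L1 (1.22 [1.04 to 1.41]). The reduction in sh-c-Myc, the rise from it to the double knockdown and the departure all use the same 1 sh-c-Myc library. They are therefore not independent, and a low count in that library makes each of them larger. The checkpoint group had the highest group median (1.07) and the condensin group the lowest (0.57). FOXM1 (0.11 [-0.09 to 0.31]) and SMC4 (-0.03 [-0.10 to 0.03]) had intervals that include 0.

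Fitting both hairpins across all 4 libraries with edgeR's quasi-likelihood test and 1 term per hairpin gave the comparison that has a p-value. At an adjusted p of 0.05 the c-Myc term was lower for 38 of 59 members and higher for 0, where 14.2% of the 12855 genes tested were lower and 9.24% higher. MAD2L1 (log2 effect -1.27, adjusted p = 0.00405) and CDC20 (-1.39, adjusted p = 0.00542) were among them, and TOP2A (-0.53, adjusted p = 0.102) and FOXM1 (-0.46, adjusted p = 0.0610) were not. The Bcl-2 term passed for 0 members, where 0.0156% of all genes were lower and 0.0156% higher, and 20 members and 7.51% of all genes had an unadjusted p under 0.05. DESeq2 and limma-voom also gave 0, with 14 and 21 members at that unadjusted p, but the term was higher for 6 members with total counts, 7 with upper quartile factors and 1 with no filter on low counts. Only 1 residual degree of freedom is left, and in it the departure from additivity and the spread between libraries cannot be told apart.

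The base composition of the transcripts ran with the Bcl-2 hairpin differences. The members' longest transcripts had a median GC content of 42.6%, against 48.1% over the genes that met the CPM minimum. Across members the log2 ratio of sh-Bcl2 to shControl correlated with GC content at Spearman -0.58, beside -0.35 over 10739 genes with at least 50 counts on average. For the ratio of the double knockdown to sh-c-Myc these values were -0.37 and -0.31. For the double knockdown against shControl the values were -0.57 and -0.20, so the levels with both hairpins given above ran with GC content too. For sh-c-Myc against shControl they were -0.18 and -0.0002. GC-poor members such as CENPE (35.3%) lay above shControl in sh-Bcl2, and GC-rich ones such as AURKB (55.6%) below it. With a trend on GC content and length removed, the members' median was -1.10 for sh-c-Myc against shControl, -0.40 for the double knockdown against shControl and 0.70 for the double knockdown against sh-c-Myc, where 6 members in place of 12 were called higher. The part of base composition in single genes was not tested.

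**Figure D4:**
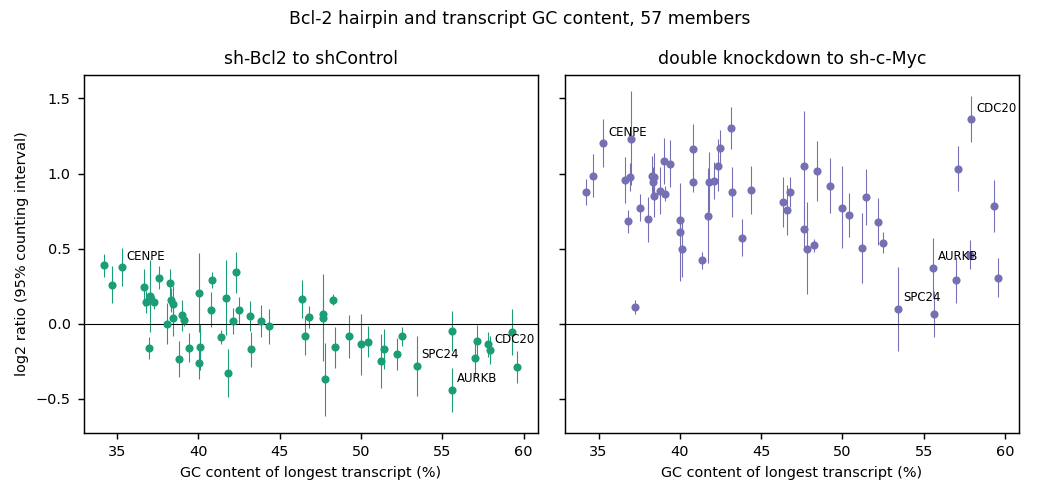
Log2 ratio of the Bcl-2 hairpin with the control hairpin (left) and with the c-Myc hairpin (right) against the GC content of the longest transcript, for the 57 members other than PRC1 and NUSAP1, with 95% counting intervals. Ratios on the left fall from about 0.4 in GC-poor members (CENPE) to about -0.4 (AURKB); on the right nearly all lie above 0, and CDC20 is high in spite of a GC content of 57.9%.

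A mixed list of other genes linked to mitosis was less reduced in sh-c-Myc at the median. It also holds regulatory genes such as RBL2 and E2F4, and subunit genes of cohesin and of the anaphase-promoting complex. RBL2 had the highest log2 ratio of the list in sh-c-Myc (0.44). The median of the list therefore does not describe G2 and mitosis genes alone. The 73 genes of this list were written from general knowledge, with earlier results of these data known, and 71 met the CPM minimum. Of these 29 were called lower in sh-c-Myc and 0 higher (median log2 ratio -0.90), where 9.86% of all genes were called lower. Those with the largest reductions were TRIP13, the ATPase that takes checkpoint complexes apart (-2.21), CDC25A, a phosphatase of entry into S phase and mitosis (-2.09), PKMYT1, the membrane kinase that inhibits CDK1 (-2.005), and SKA3, of the kinetochore SKA complex (-1.98). In the double knockdown TRIP13 (-1.04), CDC25A (-1.19) and PKMYT1 (-1.30) remained over 2-fold below shControl, and SKA3 did not (-0.64). Over these 71 genes 6 were called lower in the double knockdown against shControl (median -0.24), where 5.99% of all genes were. Against sh-c-Myc 5 were called higher (median 0.64), where 1.66% of all genes were. Their promoters held a CHR in 50.8% of 63.

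Genes of DNA replication had a like median in sh-c-Myc and a lower one in the double knockdown. Of 52 genes 34 were called lower in sh-c-Myc (median -1.15) and 4 in the double knockdown against shControl (median -0.56, beside -0.34 for the mitotic members). The shares of all genes called lower were 9.86% and 5.99%. The most reduced included the replication initiation factors MCM10 (-2.13) and CDC6 (-1.96), the flap endonuclease gene FEN1 (-1.95) and the helicase subunit gene MCM4 (-1.82). Among 16 measured G1 cyclins, kinases and inhibitors 7 were called lower in sh-c-Myc (median -0.63), led by CCND1 (-2.32), E2F2 (-2.21), CCNE1 (-2.08) and E2F1 (-1.67).

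**Figure D5:**
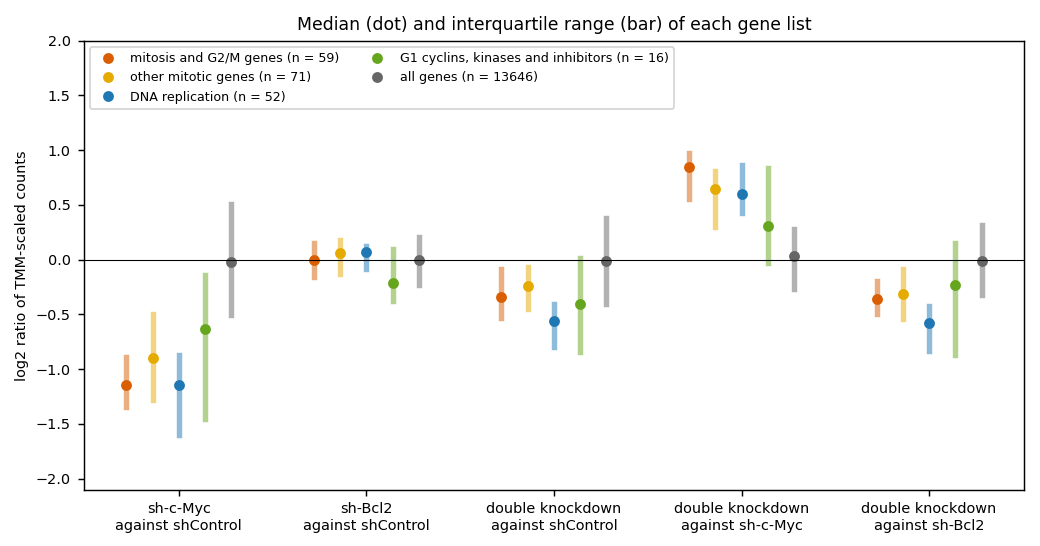
Median (dot) and interquartile range (bar) of the log2 ratio in 5 comparisons for the 59 members, other mitotic genes, DNA replication genes, G1 genes and all genes that met the CPM minimum. The members' medians are -1.14 in sh-c-Myc, -0.0001 in sh-Bcl2, -0.34 in the double knockdown against shControl, 0.84 against sh-c-Myc and -0.35 against sh-Bcl2.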

How the data were processed

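Total RNA of 4 MOLM-13 libraries, 1 per group, was sequenced after NEBNext library preparation, per the labels' protocols (1.5 µg of RNA each; puromycin at 0.5 µg/ml or G418 at 600 µg/ml; the Western blot followed 72 h of doxycycline). Reads were aligned to GRCh38 with HISAT2 and counted per gene with HTSeq 0.13.5, per the submitters' processing notes, which give neither the annotation release nor the strand setting. The deposited table holds raw read counts and FPKM per gene, per the file headers. Lengths implied by the authors' counts and FPKM were whole numbers (tolerance 0.01 base) for 100% of genes and equal the GENCODE 29 exon union for 99.68%.

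Counts were scaled with TMM factors (edgeR 4.0.16; 0.950 to 1.08). Log2 ratios (prior count 0.5) carry exact conditional binomial 95% intervals, levels exact Poisson intervals, and departures delta-method intervals; all cover counting error only. The 2 by 2 edgeR fit took genes that reached 1 CPM in 2 or more libraries, and p-values were adjusted by Benjamini-Hochberg over all genes tested (dispersion 0.0221). With 1 residual degree of freedom per gene, these p-values do not measure a spread between replicates. The residual holds the departure from additivity together with the spread between libraries. DESeq2 1.42.0 and limma 3.58.1 were alternatives. FPKM alternatives used log2(FPKM + 1) and log2(FPKM + 0.1). GC and length trends were removed with splines of 5 degrees of freedom. The scripts were tested on simulated data.

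The members and lists were chosen with earlier results of these data known. Within each role group, levels in all libraries were given for the 2 most abundant members in shControl and the 2 with the largest conservative fold in sh-c-Myc, and over all members for the 5 at each end of 3 comparisons (38 genes). From the other mitotic, DNA replication and G1 lists up to 4 genes with the largest conservative fold were named. Single cell type markers were named outside this rule.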

Additional observations from a re-analysis of the deposited data

Results flagged for a closer look

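For 21 members the log2 ratio of the Bcl-2 hairpin was below 0 with the control hairpin (sh-Bcl2 against shControl) and above 0 with the c-Myc hairpin (double knockdown against sh-c-Myc), each with a counting interval that excludes 0, which is 35.6% of members and 6.86% of all genes. With 1 library per group the difference between the backgrounds was not tested, and each value below gives the first ratio and then the second. Among the genes of mitotic entry and the spindle kinases and their partners these were CDK1 (-0.16 and 0.98), NEK2 (-0.33 and 0.94), PLK1 (-0.12 and 1.03) and TACC3 (-0.14 and 0.46). In the checkpoint and the chromosomal passenger complex they were AURKB (-0.44 and 0.37), BIRC5 (-0.21 and 0.68), BUB1B (-0.17 and 0.88), BUB3 (-0.09 and 0.42), CDCA8 (-0.17 and 0.84), INCENP (-0.29 and 0.31) and MAD2L1 (-0.16 and 1.06). Those listed under kinetochore or under cohesion and anaphase were CDC20 (-0.18 and 1.36), CDCA3 (-0.25 and 0.50), CENPA (-0.37 and 0.50), ESPL1 (-0.23 and 0.29), NDC80 (-0.16 and 0.50) and NUF2 (-0.24 and 0.88). The remaining ones were ANLN (-0.26 and 0.69), KIF20A (-0.16 and 1.01), KIF2C (-0.12 and 0.72) and NCAPD2 (-0.08 and 0.54). All 4 subunit genes of the passenger complex were in this set. Scaling by total counts raises the ratio with the control hairpin by 0.0217. The upper interval ends of NDC80 (-0.0016), PLK1 (-0.0079), KIF2C (-0.0186), NCAPD2 (-0.0208) and KIF20A (-0.021) lie closer to 0 than that. The place of these genes in the set therefore depends on the scaling. The ratio with the control hairpin was under 1.5-fold for each of the 21, and GC content, which ran with both ratios as described above, was not tested as a part of it.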

How the results depend on the processing

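Under every alternative run, each comparison's median log2 ratio kept its sign, except that of sh-Bcl2 against shControl, which stayed between -0.02 and 0.05. For sh-c-Myc against shControl the median was -0.96 with total counts, -0.96 with upper quartile factors, -0.85 with FPKM + 1 and -0.95 with FPKM + 0.1. The number of members called was 54 at 1.5-fold and 22 with FPKM + 1. For the double knockdown against shControl it was 13 at 1.5-fold and 0 with FPKM + 1. Against sh-c-Myc 43 members were called at 1.5-fold, 3 with FPKM + 1, and 6 with total counts, with upper quartile factors, with FPKM + 0.1 and with the GC and length trend removed. Against sh-Bcl2 8 were called at 1.5-fold. The Bcl-2 term of the 2 by 2 fit passed for 6 members with total counts, 7 with upper quartile factors and 1 with no filter on low counts, all of them higher. The c-Myc term passed for 29 (DESeq2) to 48 members (no filter). The count of 0 in sh-Bcl2 held under all alternatives. Calls of MAD2L1, NCAPG and KIF20A against sh-c-Myc lie close to 2-fold and were lost with FPKM, total counts, upper quartile factors and trend removal. That of PLK1 was lost in the same settings except trend removal. Calls of NCAPH, KIF11 and CENPE in sh-c-Myc were lost with total counts, upper quartile factors and both FPKM settings. The cause was not tested. No paired analysis was possible because each group holds 1 library, and leaving one out was not possible for the same reason. The median 95% half-width of a member's log2 ratio between both c-Myc hairpin libraries was 0.15, from counting error alone.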
